A study of Arabidopsis thaliana with 12 samples.

Results

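The genes described here are 8 cell wall genes of Arabidopsis thaliana, 4 XTH genes (XTH16, XTH18, XTH19 and XTH33) and 4 expansin genes (EXPA7, EXPA8, EXPA18 and EXPB1). They were chosen by name, with earlier results of these data known. A gene was represented by the probe set that names it and no other gene, and each of the 8 had exactly 1 such probe set, out of 13513 probe sets that name a single gene and 22810 on the array. Of the 8 genes, 6 passed the filter on low signals and were tested, while EXPA7 and EXPA18 did not pass.

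RNA came from leaves of plants 4 weeks old of the Col-0 ecotype, either wild type (WT) or ago1-27, and was hybridised to 12 ATH1 arrays in 4 groups of 3 biological replicates. ago1-27 is a hypomorphic allele of ARGONAUTE1, so it keeps part of the function of this protein, which carries microRNAs to their target transcripts. The dark groups, WT_dark and ago1-27_dark, spent 12 h in darkness. The submerged groups, WT_submerged and ago1-27_submerged, spent the same 12 h in darkness with water standing 10 cm over their leaves, so darkness was common to all arrays. Each replicate was a pool of 4 plants. In such whole-leaf RNA, fewer cells of a type and less RNA per cell cannot be told apart.

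Values are signal intensities on a linear scale, and the 40th percentile of each array, between 72 and 120, was taken as its low-signal limit. The labels themselves have a limit. The summed signal of 11 low-oxygen genes, which a flooded leaf is known to induce, ran from 79784 to 93170 on the 6 arrays labelled WT and from 5045 to 11099 on the 6 labelled ago1-27, in the dark and under submergence alike. Among the 11, AT3G10020 was an exception. Its means were 1546 in WT_dark and 1574 in ago1-27_dark, and 666 in WT_submerged and 700 in ago1-27_submerged. Groups are therefore named as the labels name them, and every direction below rests on those labels. WT_dark replicate 1 and ago1-27_submerged replicate 3 had the lowest mean correlations with the other arrays of their groups, 0.937 and 0.935, against 0.951 to 0.976 for the other 10. The leaf label was borne out by 6 photosynthesis genes, all above the limit on all 12 arrays, with a summed signal of 41911 to 127719. The 4 named flower and pollen markers summed to at most 161, and no marker of roots or root hairs from the lists is named on the array.

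The growing plant cell wall is a mesh of cellulose microfibrils coated and linked by xyloglucan, a branched hemicellulose. XTH enzymes (xyloglucan endotransglucosylase/hydrolases) cut a xyloglucan chain and either join the cut end to another chain or release it with water, so the same family can build, loosen or trim the network. Expansins loosen the contact between wall polymers without cutting them, and they do so best at the acid pH of a growing wall. Alpha-expansins (EXPA) and beta-expansins (EXPB) are separate branches of the family, and the expansin-like proteins (EXLA, EXLB) are related to them in sequence. Submergence is known to change the growth of petioles and leaves in many plants, and both enzyme groups have been studied in that setting.

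XTH18 parted the arrays by labelled genotype. Its signal was 1037, 5378 and 6711 in WT_dark and 3627, 3915 and 6253 in WT_submerged. In ago1-27 it was 5.96, 15.7 and 23 in the dark and 45.1, 40.1 and 39.6 under submergence. All 6 arrays labelled ago1-27 lay under the low-signal limit, and all 6 labelled WT lay far above it, with WT_dark replicate 1 lowest among them. The bound was at least 37.3-fold lower in ago1-27 in the dark (means 4375 and 14.9) and at least 44.8-fold lower under submergence (means 4598 and 41.6). XTH18 passed the filter only through the WT arrays. A genotype difference was thus built into the filter, and no limma p-value is given for it. Submergence in WT gave a log2 change of 0.42 ± 0.61 (SE, adjusted p = 0.74, 95% interval -0.9 to 1.73), and the WT groups overlapped. Without WT_dark replicate 1 this change was -0.43. In ago1-27 the submerged arrays were all above the dark ones, but with both groups under the limit no fold is given (adjusted p = 0.1). The bound in the dark was at least 67-fold without that array and 26.3-fold without WT_dark replicate 3.

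XTH19 is the next gene to XTH18 in the RefSeq gene order (TAIR10.1), and the pair are close relatives, so probes of one may also bind RNA of the other, which was not tested. Its signal was 565, 919 and 947 in WT_dark and 2623, 1729 and 2086 in WT_submerged. In ago1-27 it was 211, 197 and 174 in the dark and 272, 156 and 207 under submergence. Every WT array lay above every ago1-27 array, and within WT every submerged array lay above every dark one, while the ago1-27 treatments overlapped. XTH19 rose with submergence in WT by 1.42 ± 0.24 on the log2 scale (SE, n = 3 each; limma adjusted p = 0.0051). In ago1-27 the change was 0.1 ± 0.24 (adjusted p = 0.84, 95% interval -0.43 to 0.62). The difference between these changes, -1.33 ± 0.34, did not pass the threshold (interaction, adjusted p = 0.11, unadjusted p = 0.002). XTH19 was 4.08-fold lower in ago1-27 in the dark (limma adjusted p = 2.5e-05) and 10.2-fold lower under submergence (limma adjusted p = 1.1e-06).

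XTH33, which differs from most XTH proteins in having a predicted membrane anchor, followed the labelled treatment. Its signal was 117, 109 and 109 in WT_dark and 544, 516 and 343 in WT_submerged. In ago1-27 it was 165, 89.1 and 170 in the dark and 624, 573 and 462 under submergence. The 6 submerged arrays all lay above the 6 dark arrays, and the genotypes overlapped within each treatment. XTH33 rose 4.1-fold in WT and 4.04-fold in ago1-27 (limma adjusted p = 0.001 and 0.0011). The difference between the 2 rises was -0.02 ± 0.36 on the log2 scale (SE, adjusted p = 0.99), with a 95% interval of -0.8 to 0.75. The genotype difference was 0.28 in the dark (95% interval -0.27 to 0.83, adjusted p = 0.37) and 0.26 under submergence (-0.29 to 0.81, adjusted p = 0.42). Without ago1-27_dark replicate 2 the difference in the dark was 0.58 and passed the threshold (adjusted p = 0.044).

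XTH16 was lowest in WT_dark, at 74.2, 99 and 47.3, where only replicate 2 exceeded the limit. It was 253, 202 and 221 in WT_submerged, 288, 119 and 242 in ago1-27_dark and 347, 281 and 661 in ago1-27_submerged. The WT_dark arrays lay below all the other 9, and the other groups ran into each other, except that ago1-27_submerged stayed above WT_submerged. XTH16 rose 3.19-fold with submergence in WT (log2 change 1.67 ± 0.38, SE, limma adjusted p = 0.021) and was 2.88-fold higher in ago1-27 than in WT in the dark (1.53 ± 0.38, adjusted p = 0.0046). Both comparisons use the same WT_dark arrays. Submergence in ago1-27 (0.99 ± 0.38, adjusted p = 0.12) and genotype under submergence (0.84 ± 0.38, adjusted p = 0.089) were not called. The rise in WT lost its call without WT_dark replicate 3 or without any of the 3 WT_submerged arrays, with adjusted p up to 0.092.

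**Figure D1:**
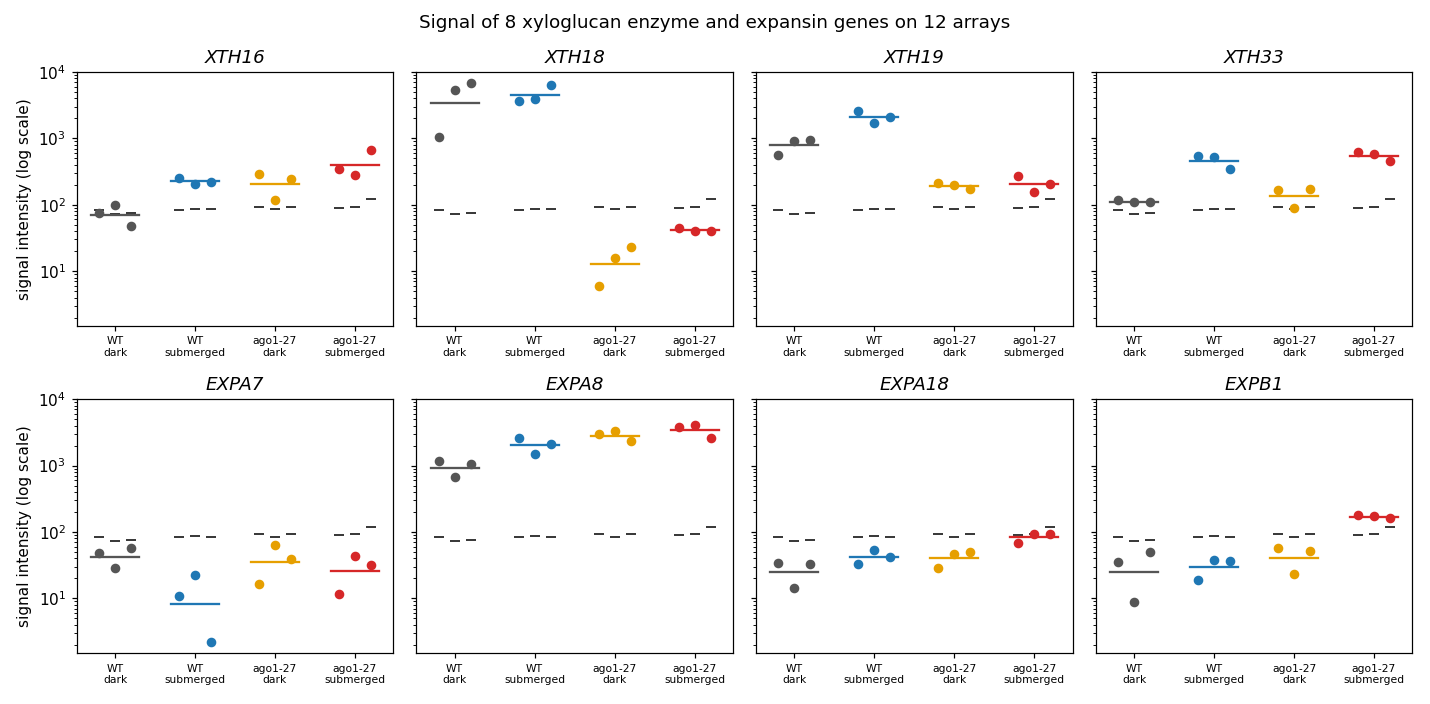
Signal intensity (log axis) of each of the 8 genes on the 12 arrays, in 4 groups of 3. Points are arrays, coloured bars are geometric means of a group, and short black dashes are the low-signal limit of each array. XTH18 lies under the limit on all 6 ago1-27 arrays, XTH33 is higher on all 6 submerged arrays, and EXPA7 and EXPA18 stay under the limit on all 12.

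To set XTH18 against the other 3 XTH genes, their log2 signals were subtracted within each array, so that a change in the difference shows unequal change. The absolute size of such a difference has no meaning, since probe sets differ in brightness. XTH18 minus XTH19 was 2.08 ± 1.05 in WT_dark, 1.08 ± 0.57 in WT_submerged, -3.9 ± 1.14 in ago1-27_dark and -2.32 ± 0.32 in ago1-27_submerged (log2, SD, n = 3 each). On all 3 differences, every WT array lay above every ago1-27 array. So XTH18 was lower in ago1-27 relative to its neighbour XTH19, which was itself lower there.

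Since XTH18 was under the limit on all 6 ago1-27 arrays, its difference from the other genes there is a bound, taken with signals under the limit raised to it, a floor added after the data were seen. On that scale, averaged over the treatments, XTH18 was lower in ago1-27 by at least 6.32-fold relative to XTH19, 83.9-fold relative to XTH16 and 49.3-fold relative to XTH33 (log2 differences of -2.66, -6.39 and -5.62). Differences were tested by two-sided exact permutation over 400 splits within treatments or genotypes, adjusted over 6 differences (3 genes by genotype or treatment). By genotype all 3 gave the smallest p these splits can give, as groups that do not overlap must. The contrasts were chosen with earlier results of these data known, so no p-value is given for genotype. The signals as deposited gave -4.69, -8.56 and -7.65, and the part of these values beyond the bounds rests on signals under the limit.

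With submergence, XTH18 as deposited moved by -1.01 relative to XTH19, by -1.26 relative to XTH16 and by -1.62 relative to XTH33 in WT (log2), where XTH18 was above the limit. XTH16 exceeded the limit on only 1 WT_dark array, and with the floor the change relative to XTH16 in WT was -0.97. In ago1-27 the deposited signals gave 1.59, 0.7 and -0.33, which rest on XTH18 signals under the limit. Averaged over the genotypes the changes were 0.29 (exact p = 0.67), -0.28 (exact p = 0.71) and -0.98 (exact p = 0.15, adjusted p = 0.225), so for XTH19 and XTH16 they combine opposite signs. With the floor they were -0.48 (exact p = 0.29), -0.9 (exact p = 0.105) and -1.74 (exact p = 0.01, adjusted p = 0.015). The sign for XTH19 thus turned with the floor, and the call for XTH33 depends on it. In ago1-27 the floored difference from XTH33, -1.87, holds only the rise of XTH33 and the change in the limits, and says nothing of XTH18. Without ago1-27_dark replicate 1 the deposited signals gave -1.32 for XTH33 (exact adjusted p = 0.045).

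**Figure D2:**
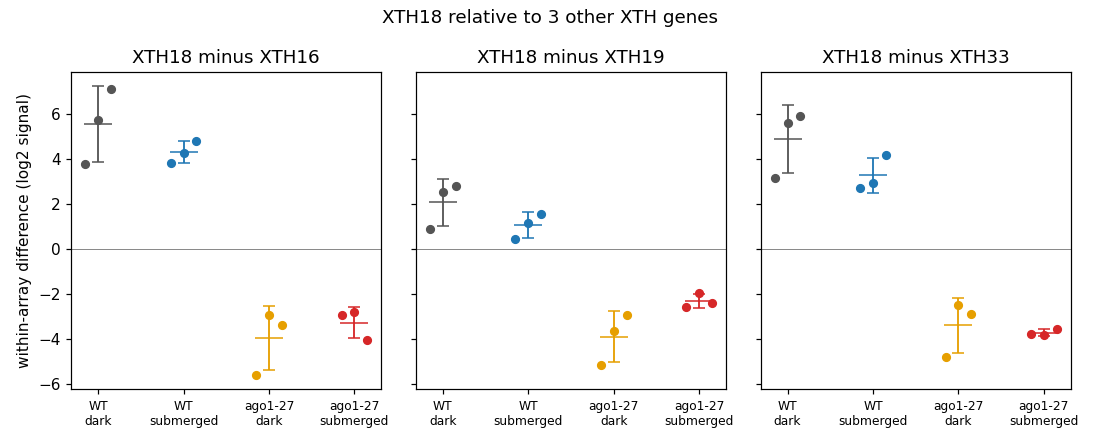
Within-array difference in log2 signal between XTH18 and XTH16, XTH19 or XTH33 for each array, in 4 groups of 3. Points are arrays, and bars are the mean and SD of a group. In all 3 panels the 6 WT arrays lie above the 6 ago1-27 arrays, whose XTH18 signals are under the limit. Only changes between groups can be read, not the distance from 0.

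EXPA8, an alpha-expansin, was high on every array and lowest in WT_dark. Its signal was 1159, 662 and 1046 in WT_dark, 2615, 1485 and 2084 in WT_submerged, 2967, 3274 and 2336 in ago1-27_dark and 3844, 4127 and 2633 in ago1-27_submerged. Within each treatment every ago1-27 array was above every WT array, and within WT the treatments did not overlap. The gene was 3.05-fold higher in ago1-27 in the dark (log2 1.61 ± 0.26, SE, limma adjusted p = 0.00021) and 1.73-fold higher under submergence (0.79 ± 0.26, adjusted p = 0.024). Submergence raised it by 1.11 ± 0.26 in WT (adjusted p = 0.022). In ago1-27 the change was 0.29 ± 0.26 (adjusted p = 0.51), and the difference between the changes, -0.82 ± 0.36, was not called (adjusted p = 0.32). The rise in WT lost its call without WT_dark replicate 2 or 3 or WT_submerged replicate 1 or 3 (adjusted p up to 0.11), and when only the WT arrays were fitted (0.073). The difference under submergence lost it without ago1-27_submerged replicate 1 or 2 or WT_submerged replicate 2 or 3 (adjusted p up to 0.11).

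EXPB1, a beta-expansin, exceeded the limit in 1 group alone. In ago1-27_submerged its signal was 179, 173 and 161. In WT_dark it was 35.1, 8.95 and 49.4, in WT_submerged 19.1, 38.3 and 36, and in ago1-27_dark 57, 23 and 51.2, all under the limit. It was therefore tested only because that 1 group was high, so a difference against that group was built into the filter and no p-value is given for it. EXPB1 was at least 1.99-fold higher in ago1-27 than in WT under submergence, and within ago1-27 at least 1.9-fold higher under submergence than in the dark.

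EXPA7 and EXPA18, alpha-expansins known for their expression in root hairs, were under the limit on all 12 arrays. EXPA7 was 47.5, 28.3 and 56.7 in WT_dark, 11, 22.6 and 2.24 in WT_submerged, 16.7, 64.1 and 39.8 in ago1-27_dark and 11.6, 43.7 and 32.2 in ago1-27_submerged. EXPA18 was 34, 14.6 and 32.6 in WT_dark, 33.5, 53.4 and 41.3 in WT_submerged and 28.2, 46.4 and 50.2 in ago1-27_dark. In ago1-27_submerged it reached 67.5, 91.7 and 94.5, next to limits of 89.1, 91.9 and 120. EXPA18 is thus the gene just outside the filter and EXPB1 the one just inside it. Neither root hair gene has a fold here.

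**Figure D3:**
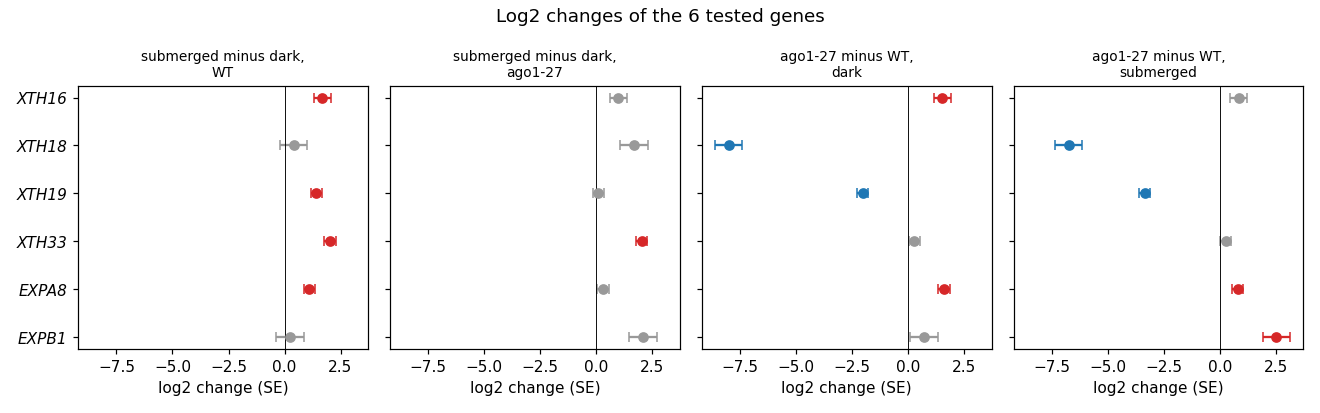
Log2 changes with standard errors for the 6 tested genes in 4 comparisons, from limma on 12 arrays. Red marks a rise and blue a fall at an adjusted p under 0.05, and grey marks the rest. XTH33 is red in both submergence panels, and XTH18 and XTH19 are blue in both genotype panels. The XTH18 values of the genotype panels rest on ago1-27 signals under the limit and are not folds.

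Read by comparison, submergence in WT raised 4 of the 6 tested genes (XTH16, XTH19, XTH33 and EXPA8) and lowered 0, where 4.71% of all 14812 tested probe sets were called higher, 2.37% lower and 7.08% in either direction. The same 4 genes were those whose WT treatments did not overlap, as 25.6% of all probe sets did not. Their calls do not rest on array scaling, although the balance of calls over the whole array does (697 higher and 351 lower as deposited, 514 and 473 with median centring of the arrays). The median log2 change of the 6 genes was 1.27, against 0.07 for all probe sets. Without WT_dark replicate 3, or WT_submerged replicate 1 or 3, the calls of XTH16 and EXPA8 were both lost and 2 of the 6 were called, XTH19 and XTH33. In ago1-27 submergence raised 1 of the 6, XTH33, with 4.19% of probe sets called higher and 8.38% in either direction. The treatments did not overlap for 3 of the 6 (XTH18, XTH33 and EXPB1), as for 33.7% of all probe sets, but XTH18 was under the limit in both groups and EXPB1 in the dark one. Without WT_dark replicate 1 those 2 genes were called as well, and without WT_dark replicate 2 EXPB1 was. EXPB1 passed the filter only through ago1-27_submerged, so its call was built into the filter.

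Between genotypes the 6 genes split, with XTH18 having passed the filter only through the WT arrays. In the dark XTH16 and EXPA8 were higher in ago1-27 and XTH18 and XTH19 lower, with 52.9% of all probe sets called, 32.1% higher and 20.8% lower. Under submergence EXPA8 and, through the group that let it pass the filter, EXPB1 were higher and XTH18 and XTH19 lower, with 44.5% called, 26.7% higher and 17.8% lower. The genotypes did not overlap for 4 of the 6 in the dark and 5 under submergence, against 60.9% and 56.4% of all probe sets. The counts of 4 in 6 are thus near the background of comparisons in which so much of the array differed. The interaction called 0 of the 6 with limma, 2 of them (XTH19 and EXPA8) at an unadjusted p under 0.05, where 0.284% of probe sets were called.

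Of 3 RNA control ratios, 1 differed between the labelled genotypes by more than the SDs in both treatments. For the GAPDH control, signal of the 3' over the 5' probe set was 1.42 ± 0.11 in WT_dark and 1.29 ± 0.065 in WT_submerged, but 1.93 ± 0.27 in ago1-27_dark and 1.97 ± 0.26 in ago1-27_submerged (SD, n = 3 each). The actin ratio was 7.95 ± 0.48 in WT_dark and 8.02 ± 0.86 in ago1-27_dark, and 6.3 ± 0.63 and 11.4 ± 0.99 under submergence. The ubiquitin ratio was 2.69 ± 0.13 and 2.72 ± 0.2 in the dark, and 2.83 ± 0.2 and 3.27 ± 0.33 under submergence. The 6 photosynthesis genes were all higher in ago1-27 in both treatments. They summed to 41911 to 55290 in WT_dark and 109019 to 122927 in ago1-27_dark, and to 61483 to 72467 and 97176 to 127719 under submergence. Of 4 named guard cell and epidermis markers 2 were tested. TRY, a regulator that limits trichome formation, and STOMAGEN, a peptide that promotes stomata, were higher in ago1-27 in the dark, and TRY also under submergence. TRY was under the limit on all 6 WT arrays, at means of 47.3 and 50.8, against 544 and 213 in ago1-27. The 4 genes, MUTE and SPCH included, summed to 379 to 704 in WT_dark, 1092 to 1261 in WT_submerged, 2319 to 2671 in ago1-27_dark and 1267 to 2343 in ago1-27_submerged. STOMAGEN made up most of these sums, with means of 437, 1064.5, 1940 and 1619 in the same order. The sums therefore do not measure the share of guard cells or epidermis. One more symbol of that list, FDH, names formate dehydrogenase in RefSeq and was left out after its values were seen. With it the sums were 4201 to 4998, 5300 to 6866, 7604 to 8996 and 5309 to 7938. Their part in the wall gene results was not tested.

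Within treatment, STOMAGEN rose with submergence in WT by 1.32 ± 0.24 on the log2 scale (SE, limma adjusted p = 0.0068), in the comparison in which 4 wall genes rose, and 3 of the 6 photosynthesis genes (LHCB4.2, PSAN and PSBY) rose there too. Neither the tested genes of the guard cell and epidermis list nor the photosynthesis genes were called with submergence in ago1-27. TRY came near the threshold there (log2 -1.37 ± 0.39, SE, limma adjusted p = 0.051). Its signal was 438 to 604 in the dark and 157 to 245 under submergence.

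The other named genes of both families were read from the same fit. Of 35 XTH genes listed, 9 were named by a probe set that names a single gene. Of these, 5 were tested, the 4 above and XTH32. XTH32 was 380, 186 and 172 in WT_dark and 1118, 930 and 996 in ago1-27_dark, and 488, 327 and 340 against 1078, 1226 and 2108 under submergence. It was higher on every ago1-27 array, 4.4-fold in the dark (limma adjusted p = 9.6e-05) and 3.72-fold under submergence (limma adjusted p = 0.00039). XTH20, XTH21, XTH26 and XTH29 were not tested. XTH20 exceeded the limit on 1 array and the other 3 on none. So among the XTH genes called between genotypes, XTH18 and XTH19 were lower, and XTH32 and, in the dark, XTH16 were higher, with the same directions after quantile normalization and median centring.

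Of 36 expansin genes listed, 18 were named in the same way, and 10 of these were tested. In ago1-27 in the dark 5 were higher (EXLA2, EXPA4, EXPA8, EXPA9 and EXPB3) and 0 lower, and under submergence 6 were higher (EXLA2, EXLB1, EXPA8, EXPA15, EXPB1 and EXPB3) and 0 lower, where 32.1% and 26.7% of all probe sets were called higher. The second count includes EXPB1, which passed the filter only through that group. The count in the dark was 3 without ago1-27_dark replicate 1 or 3 or WT_dark replicate 2. After quantile normalization 4 and 6 were higher and 0 lower, and with median centring 5 and 6 were. EXPB3 was 202, 74.8 and 124 in WT_dark, 185, 130 and 159 in WT_submerged, 663, 259 and 539 in ago1-27_dark and 656, 634 and 3479 in ago1-27_submerged. Its last array stood apart from the other 2, as it did for EXPA4 (892, 811 and 3641) and EXPA15 (233, 190 and 1352). Without ago1-27_submerged replicate 3, EXPB3 was still higher in ago1-27 under submergence (log2 2.05 in place of 2.86, adjusted p = 0.0023), and EXPA15 was not called (0.61 in place of 1.51, adjusted p = 0.078).

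With submergence, the expansin-like gene EXLA1 rose in both genotypes. It was 62, 163 and 60.6 in WT_dark and 472, 331 and 336 in WT_submerged, then 71.6, 91.3 and 115 in ago1-27_dark and 326, 252 and 206 in ago1-27_submerged. All submerged arrays exceeded all dark arrays, and the rises were 4.41-fold (limma adjusted p = 0.0044) and 2.83-fold (limma adjusted p = 0.023). In the dark EXLA1 exceeded the limit on only 1 WT array and 2 ago1-27 arrays, so both folds rest partly on signals under it. The call in ago1-27 was lost without any 1 of the ago1-27 arrays except ago1-27_submerged replicate 3 (adjusted p up to 0.081). EXLB1 rose in ago1-27 from 150, 163 and 92 to 463, 583 and 504 (3.92-fold, limma adjusted p = 0.0015). In WT it was 137, 79.5 and 98.1 in the dark and 118, 156 and 182 under submergence (log2 0.55 ± 0.27, SE, adjusted p = 0.24), and the difference between genotypes was not called (interaction 1.42 ± 0.38, adjusted p = 0.12). EXLA2, under the limit on all WT_dark arrays, was at least 1.54-fold higher in WT_submerged (limma adjusted p = 0.044) but lost its call after quantile normalization (0.086) and median centring (0.061), and without most single arrays (up to 0.19 without WT_submerged replicate 1). In all, 3 of the 10 tested expansin genes rose with submergence in WT and 2 in ago1-27, with 0 lower in either, where 4.71% and 4.19% of all probe sets were called higher. The count in WT was 1 without WT_dark replicate 2 or 3 or WT_submerged replicate 1, and when only the WT arrays were fitted. The count in ago1-27 was 1 without any single ago1-27 array other than ago1-27_submerged replicate 3.

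**Figure D4:**
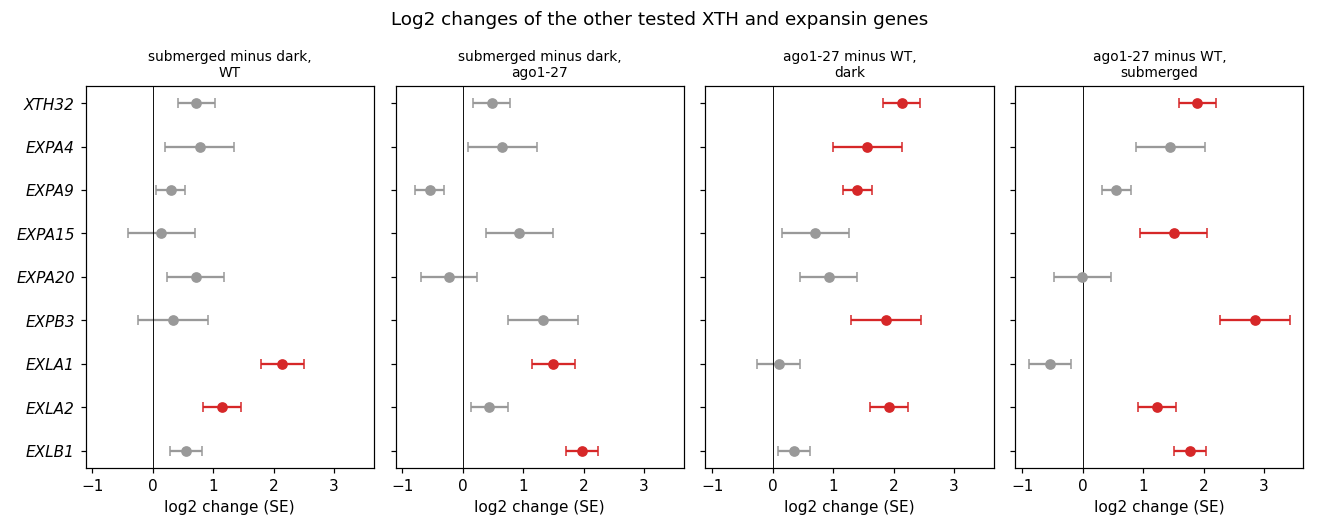
Log2 changes with standard errors for the 9 other tested genes of the XTH and expansin families, in the same 4 comparisons and colours as for the 6 genes above. EXLA1 is red in both submergence panels, XTH32, EXPB3 and EXLA2 are red in both genotype panels, and none is blue.

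Few other wall genes could be read, since most listed ones are not named by a probe set that names a single gene. Such probe sets named 3 of 27 genes of xyloglucan synthesis and breakdown and 2 of 36 cellulose genes. They also named 2 of 55 pectin genes and 2 of 61 wall protein genes. Of 2 tested genes for the xyloglucan backbone synthases of the CSLC group, 0 were called in any of the 5 contrasts. Of 2 cellulose genes, COB, which is needed for oriented cellulose deposition, was higher in ago1-27 in the dark (log2 0.5 ± 0.13, SE, limma adjusted p = 0.0061). The only tested pectin gene, GAUT15, was lower in ago1-27 under submergence (-0.71 ± 0.22, adjusted p = 0.022). Of the receptor kinases THE1 and FER, which monitor the state of the wall, THE1 rose with submergence in WT by 0.62 ± 0.15 (adjusted p = 0.028). THE1 was also higher in ago1-27 in the dark (0.85 ± 0.15, adjusted p = 0.00053) and under submergence (0.4 ± 0.15, adjusted p = 0.048), and FER was not called. Of 3 growth hormone genes, the auxin-responsive IAA29 was higher in ago1-27 in both treatments (1.8 ± 0.2 and 1.25 ± 0.2), and HAT2 was lower under submergence (-1.01 ± 0.21). The 1 named touch gene, CML23, was not tested.

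For each tested gene, the 3 other genes most like it were taken by Pearson's r of log2 signal over the 12 arrays, among 8023 candidate probe sets. These r are descriptions, since the arrays fall into 4 groups. The highest were 0.993 for XTH18 (AT4G33985, then AT3G57450 and AT1G63530), 0.98 for XTH19 (AT5G66930, AT1G04040 and AT1G61260), 0.956 for XTH33 (AT3G55920, ALN and TUB1) and 0.957 for XTH16 (AT1G19430, AT5G65860 and AT1G53645). They were 0.982 for EXPA8 (AT5G17660, AT5G35480 and AT3G61550) and 0.936 for EXPB1 (AT5G07900, AT1G50120 and AT5G47490). With group means removed, the r of XTH18 with these 3 genes was 0.875, 0.839 and 0.931. These r include ago1-27 signals under the limit for XTH18, and low ago1-27 means for AT4G33985 (26.8 and 36) and AT1G63530 (34.4 and 43.4). They also include WT_dark replicate 1, the lowest WT array for XTH18. For EXPA8 the r within groups was 0.883, 0.928 and 0.954, so high values were not particular to XTH18. For XTH33, whose closest gene AT3G55920 had means of 2.22 and 2.06 in the WT and ago1-27 dark groups, far under the limit, and 249 and 297 in the submerged ones, the r within groups was 0.065. ALN encodes allantoinase, which opens the ring of allantoin in purine breakdown. TUB1 encodes a beta-tubulin, with an r within groups of 0.65 with XTH33. The 8 genes described here were left out of the candidates, so likeness among them was not looked at. No other XTH or expansin gene was among the 3 nearest of any of the 6.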

How the data were processed

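Leaf RNA was hybridised to ATH1 arrays. The authors' values are linear signal intensities, 1 for each probe set. MAS5 made them, per the submitters' processing notes, and each array has a 2% trimmed mean of 500. Detection calls were not used here. Probe sets were named with GEO's platform annotation, and gene order with RefSeq (TAIR10.1). No sequences or coordinates were used.

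The 64 control probe sets were left out, and a probe set was tested when 3 or more of the 12 arrays had it over their own 40th percentile, which kept 14812. Log2 signals were fitted with limma 3.58.1 (R 4.3.3) as 4 group means, the prior variance following mean signal (degrees of freedom: 8 residual, 4.61 prior). Calls are Benjamini-Hochberg adjusted p under 0.05 over all 14812. A fold is a bound against the limit if a whole group was under it. Differences from XTH18 were tested with exact permutation of labels within strata. The number of arrays limits the precision.

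The 8 genes, the lists and the tests were chosen with earlier results of these data known. All 8 genes, the called genes of the lists and the 3 most alike genes of each tested gene were named by rule. Replicate numbers were not used to pair the arrays in the main fit. Of 18 same-numbered pairs, 8 had a residual correlation above 0.1 (range -0.28 to 0.35). Pairs with different numbers were not compared, so whether the numbers pair the arrays was not tested. The alternatives were other filters (none, 60th percentile), scalings, floors, a pseudocount of 16, variance models, array weights, sample subsets and a replicate block.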

Additional observations from a re-analysis of the deposited data

How the results depend on the processing

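Over the alternatives, 680 values of the 6 tested genes stayed on their side of the threshold, 13 lost a call, 16 gained one and 0 turned a called direction. This tally includes comparisons built into the filter, of XTH18 between genotypes and of EXPB1 against ago1-27_submerged. It also includes XTH18 in ago1-27, where its signals were under the limit. The counts over all probe sets moved more. Submergence in WT gave 4419 calls with array weights, 431 from the WT arrays alone, 3872 without WT_dark replicate 1 and ago1-27_submerged replicate 3 together, and 322 to 2506 without a single array. Submergence in ago1-27 gave 2701 with array weights and 346 to 1862 without a single array. The interaction gave 78 with the stricter filter, 83 with a floor at the 25th percentile, 26 without a variance trend, 1798 with array weights, 1200 without both arrays and 5 to 726 without a single array. Array weights called it for XTH16 (adjusted p = 0.043) and XTH19 (0.024). They also called it for XTH18, under the limit in both ago1-27 groups, and for EXPB1, which passed the filter only through ago1-27_submerged. No p-value is given for those. XTH18 minus XTH33 changed with submergence by -1.63 with a floor at the 25th percentile and by -1.74 with one at the 40th, a floor added after the data were seen, and by -1.41 to -0.72 without a single array. XTH18 rose with submergence in ago1-27 with array weights (adjusted p = 0.019), without WT_dark replicate 1 (0.017) and without both arrays (0.027), with both groups under the limit. XTH16 was called in the genotype comparison under submergence from those groups alone (0.049). With a replicate block the 5 contrasts gave 1101, 1179, 7793, 6589 and 50 calls, and XTH18 rose with submergence in ago1-27 (0.048). Median centring moved the median log2 change of all probe sets between genotypes in the dark from 0.17 to 0.06. The cause of these moves was not tested. No second probe set exists for any of the 8 genes, so that alternative was not run. Low signals limit EXPA7, EXPA18, EXPB1 and XTH18 in ago1-27.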

Other observations

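The genes around XTH18 and XTH19 were looked up after their values were seen, in the RefSeq gene order. The nearest named and tested genes on the far side of XTH19 were AT4G30310 and AT4G30330. AT4G30310 had mean signals of 1853 in WT_dark, 1970 in WT_submerged, 1769 in ago1-27_dark and 1449 in ago1-27_submerged, with a genotype difference of -0.07 on the log2 scale in the dark (limma adjusted p = 0.67) and -0.45 under submergence (limma adjusted p = 0.012). AT4G30330 had means of 553, 488, 499.8 and 658 in the same order, with genotype differences of -0.08 and 0.44 (adjusted p = 0.79 and 0.14). XTH24, which lies on the other side of XTH18, is not named by the annotation used here.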
